A study of Gallus gallus with 6 samples.

Results

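The fasting-response regulators examined here are 8 chicken genes: PDK4, KLF15, PPARGC1A, FBXO32, DDIT4, FOXO1, FOXO3 and CREB3L3. They were found in the deposited table by the NCBI Gene ID that each symbol has in the RefSeq gene table of chicken, and all 8 of them were among the 20498 genes listed and among the 10886 genes tested. Liver mRNA was sequenced from 6 male Jingxing-Huang chickens, an improved dwarf line, at 36 weeks of age, with 1 library per bird. Fatty liver was present in 3 birds, all from the paternal inheritance group, in which the parents had been put on a high-fat diet and sires that developed fatty liver were bred with dams that were free of fatty liver. The 3 control birds had non-fatty liver, and their parents had received the basal diet, so the diet of both parents differed between the groups. All 6 birds were of the F1 generation and ate the basal diet. Paternal group and fatty liver phenotype coincide in these libraries and cannot be told apart. Which sire each bird came from, the hour of sampling and whether feed was withheld beforehand are not given in the sources used here.

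These genes belong to the programme by which liver and other tissues turn from using glucose to sparing it between meals. When insulin is low, the kinase AKT no longer keeps the FoxO transcription factors out of the nucleus, while glucagon acts through cAMP, protein kinase A and CREB, and glucocorticoids act through their own receptor. FOXO1 and FOXO3 are FoxO factors. KLF15 is a zinc finger transcription factor of amino acid catabolism and gluconeogenesis, PPARGC1A is the coactivator PGC-1alpha, and CREB3L3 (CREBH) is a liver transcription factor that is held in the membrane of the endoplasmic reticulum until proteases release it. PDK4, FBXO32 and DDIT4 are effectors: PDK4 phosphorylates and inhibits the pyruvate dehydrogenase complex, FBXO32 (atrogin-1) is the substrate-binding part of a ubiquitin ligase, and DDIT4 (REDD1) restrains the growth kinase complex mTORC1. These roles are known mainly from mammals.

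Values are FPKM, in which a gene's fragments are divided by exon length and by the total mapped in that library. The whole fragments behind the FPKM gave library totals from 8860634 to 10403637. Groups were compared with limma on log2(FPKM + 1), with Benjamini-Hochberg adjustment over all genes tested, and a gene was called at an adjusted p under 0.05. By this rule 1.14% of the genes tested (124) were called, 92 higher and 32 lower in fatty liver. An unadjusted p under 0.05 in limma was reached by 16.3% of the genes tested, in either direction. These shares are the background for each list count below. The number called was 77 without control replicate 1, 36 without control replicate 2, 24 without fatty liver replicate 2 and 22 without fatty liver replicate 3. It was 84, with 44 higher and 40 lower, when library totals were equalized with the 50 most abundant genes set aside, and this moved the median over all genes from 0.12 to -0.01 (log2 fold change). The groups lay apart on the first principal component (38.9% of the variance), control between -30.2 and -17.6 and fatty liver between 20.8 and 27. On the second principal component (18.1% of the variance) fatty liver replicate 1 lay at -29.6, against 13.5 and 10 for the other birds with fatty liver. Control replicate 3 lay at -14.3 on it, against 7.5 and 12.9 for the other controls. The 7 hepatocyte markers summed to between 117000 and 146000 FPKM in control livers and between 121000 and 131000 FPKM in fatty livers, but the 2 most abundant markers differed in opposite directions with no overlap, albumin (ALB) at a log2 difference of -0.5 (limma adjusted p = 0.15) and APOA1 at 1.13 (adjusted p = 0.13).

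None of the 8 regulators was called, either by limma on the FPKM (0 of 8, against 1.14% of all genes tested) or by limma's voom on the recovered fragments (0 of 8), and 3 of 8 had an unadjusted p under 0.05 in limma, against 16.3% of all genes tested. PDK4, KLF15 and PPARGC1A were these 3, each with a lower mean in fatty liver. In 4 of 8 the groups did not overlap, against 23.0% of all genes, and in each of these 4 (PDK4, KLF15, PPARGC1A and FBXO32) fatty liver was the lower group, against 4.78% of all genes. The mean was lower in fatty liver for 6 regulators and higher for FOXO1 and CREB3L3. The median log2 fold change of the 8 was -0.56, beside 0.12 for all genes tested, and over the 14 alternatives it stood 0.32 to 0.87 below that of all genes (-0.87 to -0.32). The regulators had been proposed with earlier results of these data known, so these counts describe them and do not test them as a group. With 3 birds against 3, the smallest p that a two-sided exact permutation test can give is 0.1.

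**Figure D1:**
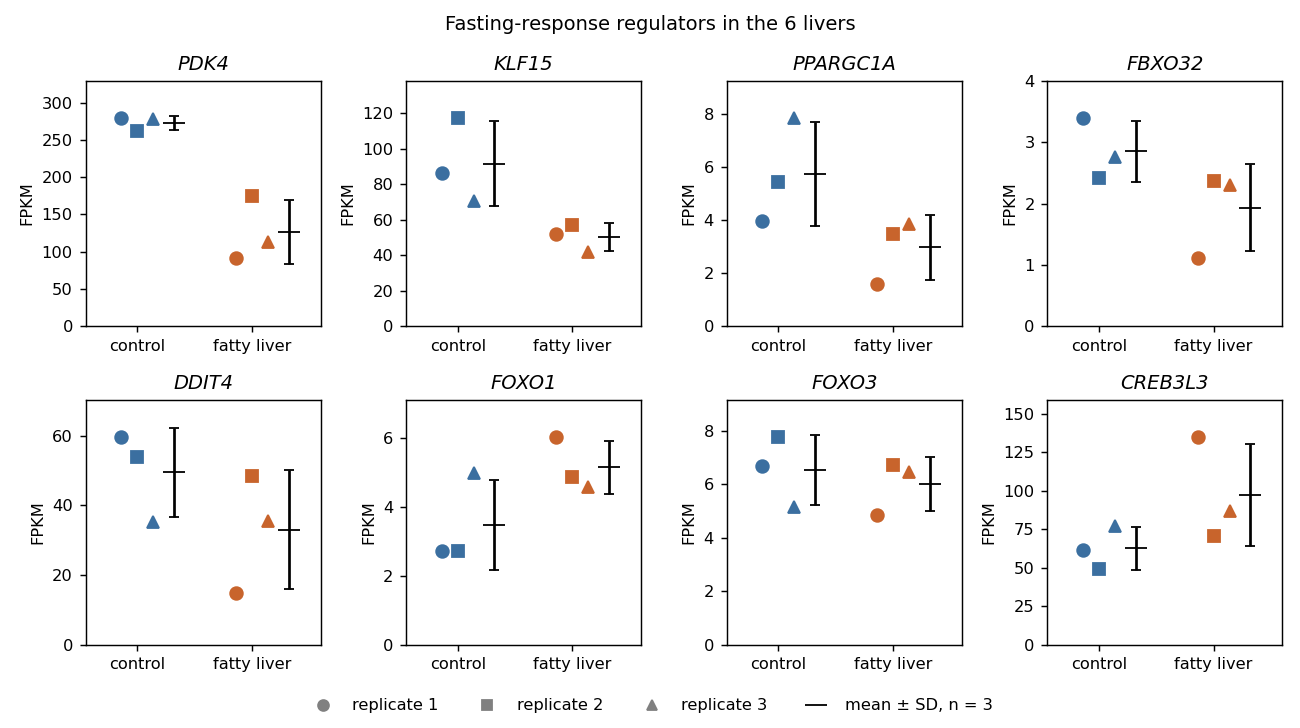
FPKM of the 8 regulators (vertical axes from 0, each with its own scale) in 3 control and 3 fatty livers, with 1 symbol per bird and the mean ± SD of each group (n = 3). The groups do not overlap in PDK4, KLF15, PPARGC1A and FBXO32, and they overlap in the other 4.

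In control livers the order of the mean levels was PDK4 (273 FPKM), KLF15 (91.4), CREB3L3 (62.5), DDIT4 (49.5), FOXO3 (6.54), PPARGC1A (5.75), FOXO1 (3.46) and FBXO32 (2.85). PDK4 stood above KLF15 in all 3 control birds with no overlap, whereas the ranges of KLF15 and CREB3L3, of CREB3L3 and DDIT4, and of each neighbouring pair among the 4 low genes overlapped. PDK4 was at the 96.6 percentile of the genes tested and FBXO32 at the 18.7 percentile. In fatty livers the order was PDK4 (126 FPKM), CREB3L3 (97.4), KLF15 (50.1), DDIT4 (33.0), FOXO3 (6.02), FOXO1 (5.14), PPARGC1A (2.97) and FBXO32 (1.93). CREB3L3 thus stood above KLF15 in each bird with fatty liver, and in fatty liver replicate 1 it also stood above PDK4.

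PDK4 had the largest difference of the 8. It was at 279, 262 and 278 FPKM in control replicates 1, 2 and 3 and at 91.3, 175 and 113 FPKM in fatty liver replicates 1, 2 and 3. The control birds lay close together and every bird with fatty liver was below them, with replicate 1 the lowest and replicate 2 nearest to the controls. The group means were 273 ± 9.46 and 126 ± 43.1 FPKM (SD, n = 3), which is 2.16-fold higher in control. On the log2(FPKM + 1) scale the difference was -1.16 (SE 0.24, 95% interval -1.71 to -0.61, limma p = 0.0013, adjusted p = 0.068), and the exact permutation p was 0.1. At between 3435 and 10912 fragments per library, the counting error of a PDK4 value was at most 1.71%, well under the spread among fatty livers.

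The spread of PDK4 itself differed between the groups. Its coefficient of variation was 3.46% in control and 34.1% in fatty liver. The control SD of 0.05 on the log2(FPKM + 1) scale was among the smallest, and 2.84% of the genes tested had one as small, while 10.3% had a fatty liver SD as large as the 0.47 of PDK4. These shares are descriptions over genes and the difference in spread was not tested. Over the 14 alternatives the adjusted p of PDK4 ranged from 0.056 to 0.21 and its log2 fold change from -1.41 to -0.95.

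Neither of the related kinases tested had a lower mean in fatty liver. PDK3, another kinase of the pyruvate dehydrogenase complex, named here after its values had been seen, was at 31.4, 23.1 and 15.2 FPKM in the control birds and at 50.5, 53.3 and 46.9 FPKM in the birds with fatty liver. All birds with fatty liver were above all controls, although the limma call was missed (log2 fold change 1.13, SE 0.25, adjusted p = 0.078). PDK1 was low and overlapped, at 3.56, 4.44 and 2.01 FPKM in control and 5.25, 2.72 and 4.4 FPKM in fatty liver. PDK2 is not analysed here.

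A ratio of both genes within a bird does not depend on how the libraries are scaled. The ratio of PDK4 to PDK3 was 8.86, 11.4 and 18.3 in control replicates 1, 2 and 3 and 1.81, 3.27 and 2.42 in fatty liver replicates 1, 2 and 3, with means of 12.8 ± 4.87 and 2.5 ± 0.735 (SD, n = 3). PDK4 made up 88.8%, 90.5% and 94.2% of the summed FPKM of PDK1, PDK3 and PDK4 in the control birds. In the birds with fatty liver it made up 62.1%, 75.7% and 68.9%. The sum of the 3 kinases was between 290 and 314 FPKM in control and between 147 and 231 FPKM in fatty liver, so it was lower in each fatty liver despite the higher PDK3. The ratio of PDK4 to PDK3 was chosen after the values had been seen and has no test. With PDK4 lower and PDK3 higher in every fatty liver, it had to separate the groups. The ratio of PDK4 to PDK1 was 78.2, 59.0 and 138 in control and 17.4, 64.1 and 25.8 in fatty liver, which overlapped. The ratios of PDK4 to KLF15 and of PPARGC1A to PPARGC1B also overlapped between the groups.

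**Figure D2:**
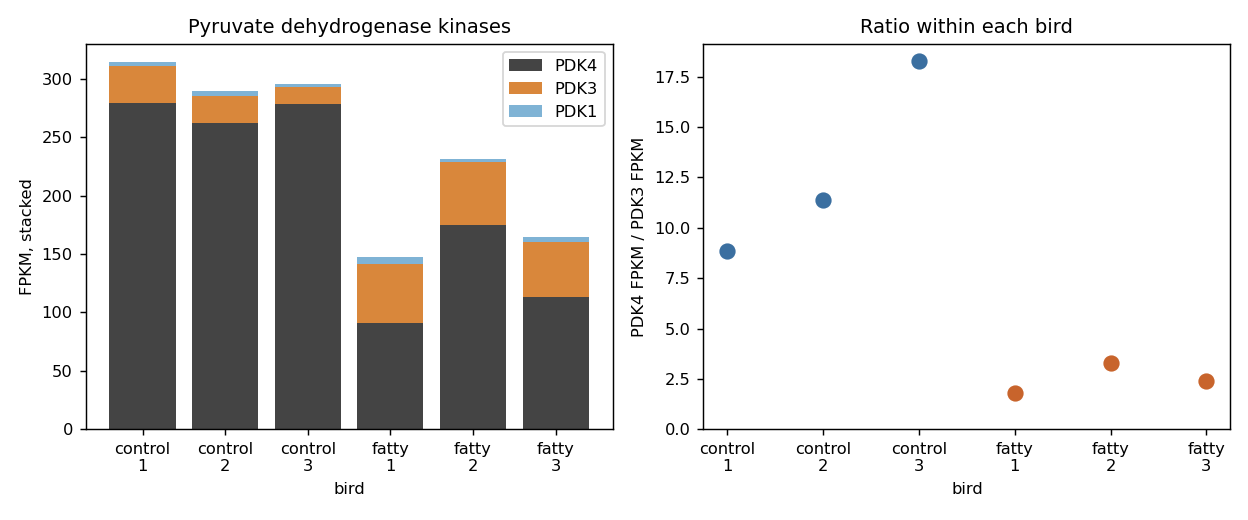
Left, FPKM of PDK4, PDK3 and PDK1 stacked for each of the 6 birds. Right, the ratio of PDK4 to PDK3 FPKM in the same birds, which lies between 8.86 and 18.3 in control and between 1.81 and 3.27 in fatty liver.

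The pyruvate dehydrogenase complex feeds pyruvate into the citrate cycle and is the target of PDK4. Around it 10 genes were followed, which cover its subunits, its phosphatases and the mitochondrial pyruvate carrier together. PDHA1 and MPC1 among them were taken from entries named PDHA2 and MPC1L. The transacetylase DLAT rose from 23.3 ± 4.83 to 67.1 ± 1.97 FPKM (SD, n = 3, log2 fold change 1.51, SE 0.18, limma adjusted p = 0.015). It was the only 1 of the 10 called, where limma called 1.14% of all genes tested. That call was lost without control replicate 2 (adjusted p = 0.056) and without fatty liver replicate 2 or 3 (adjusted p = 0.062 for each). The largest lower value was that of PDP1, a phosphatase that reverses the action of the kinases, at -0.36 (adjusted p = 0.52). The median of the 10 was 0.29, and 8 genes had a higher mean in fatty liver. The list median was 0.17 without fatty liver replicate 1. It was 0.13 when rescaled without the 50 most abundant genes, where the median of all genes fell to -0.01. Above the median of all genes it stood by 0.17 in the main fit of all birds, 0.07 without fatty liver replicate 1 and 0.14 when rescaled.

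KLF15 was at 86.1, 117 and 70.6 FPKM in control replicates 1, 2 and 3 and at 51.9, 56.9 and 41.5 FPKM in fatty liver replicates 1, 2 and 3. Every bird with fatty liver was below every control, and replicate 3 was the farthest from the controls, the only regulator in which replicate 1 was not. The means were 91.4 ± 23.9 and 50.1 ± 7.82 FPKM (SD, n = 3), 1.82-fold higher in control. The log2 difference was -0.83 (SE 0.22, 95% interval -1.35 to -0.32, limma p = 0.0058, adjusted p = 0.12), and the exact permutation p was 0.1. Over the alternatives it ranged from -1.01 to -0.64, with adjusted p from 0.072 to 0.35.

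Of 12 listed genes of amino acid breakdown and related steps that KLF15 is known to act on in mammals, 8 were tested. PRODH, the first enzyme of proline breakdown, fell from 14.7 ± 1.99 to 1.88 ± 0.87 FPKM (SD, n = 3, log2 fold change -2.48, SE 0.23, limma adjusted p = 0.0081), and this call held in all 14 alternatives. None was called higher, and the highest value was that of BCKDHA, a subunit of the branched-chain keto acid dehydrogenase, at 0.35 (adjusted p = 0.42). At an unadjusted p under 0.05 in limma 4 of the 8 were lower and 0 higher, beside 16.3% of all genes in either direction. The transaminases GPT2 (-1.92, adjusted p = 0.089) and OAT (-1.66, adjusted p = 0.062), named after their values had been seen, missed the threshold with no overlap between the groups, and GPT2 passed it without fatty liver replicate 1 (-2.43, adjusted p = 0.02). Of the 8, 6 were lower, with a median of -0.32, and between -0.49 and -0.25 over the alternatives.

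The genes whose pattern over the 6 libraries was most like that of PDK4 were sought among 6495 tested genes, those averaging 5 FPKM or more, by the mean absolute difference of centred log2(FPKM + 1) values. They were a gene without a symbol in the table (ID 107049309, 0.13), CREG1 (0.13) and ATIC (0.17), an enzyme of purine synthesis. ATIC was at 3310, 3610 and 4160 FPKM in control and 1360, 1750 and 1420 FPKM in fatty liver. For KLF15 they were CHRM2 (0.1), MOG (0.12) and PHGDH (0.12), the first enzyme of serine synthesis. PHGDH was at 1700, 1720 and 1280 FPKM in control and 950, 963 and 668 FPKM in fatty liver, and its birds had the same order within each group as in KLF15. These genes were picked for their likeness over the same 6 libraries, so a matching order of birds is favoured by the choice itself. The points also share libraries and depth, so these likenesses are descriptions.

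PPARGC1A was low in all livers, at 3.96, 5.43 and 7.84 FPKM in control replicates 1, 2 and 3 and 1.58, 3.49 and 3.84 FPKM in fatty liver replicates 1, 2 and 3. The groups did not overlap, but by little. Fatty liver replicate 3 rested on 152 fragments, with a 95% exact counting interval of 3.25 to 4.5 FPKM, and control replicate 1 on 162 fragments with an interval of 3.38 to 4.62 FPKM, so these birds could not be ordered at this depth. The means were 5.75 ± 1.96 and 2.97 ± 1.22 FPKM (SD, n = 3). The log2 difference was -0.78 (SE 0.3, 95% interval -1.47 to -0.09, limma p = 0.031, adjusted p = 0.25, exact permutation p = 0.1), and without fatty liver replicate 1 it was -0.49 (adjusted p = 0.44). Without control replicate 3, the bird with the highest value, the difference was -0.56 (limma adjusted p = 0.48). The related coactivator PPARGC1B, named after its values had been seen, was at 2.6, 2.33 and 3.5 FPKM in control and 3.3, 1.2 and 1.02 FPKM in fatty liver, where replicate 1 was within the control range.

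Of 13 tested target genes of CREB and PGC-1alpha, ALAS1, the first enzyme of haem synthesis, rose from 6.67 ± 3.53 to 27.6 ± 8.27 FPKM (SD, n = 3, log2 fold change 1.95, SE 0.34, limma adjusted p = 0.041). With all 6 birds limma called none lower, although voom on the fragments called LPIN1, which is also a glucocorticoid target, lower (adjusted p = 0.046). At an unadjusted p under 0.05 in limma 5 of the 13 were lower and 2 higher, beside 16.3% of all genes in either direction. The ALAS1 call was lost without control replicate 1 or 2 (adjusted p = 0.11 for each), without fatty liver replicate 2 (0.13) and without fatty liver replicate 3 (0.14). It was also lost under each scaling between libraries (adjusted p = 0.065 for each) and with voom on the fragments (0.054). The lowest value was that of SIK1, a kinase induced by cAMP, at 10.5, 71.4 and 75.1 FPKM in control and 17.5, 2.34 and 5.62 FPKM in fatty liver, with control replicate 1 inside the fatty liver range (-2.42, adjusted p = 0.2). The highest was that of PCK1, which makes phosphoenolpyruvate for gluconeogenesis, at 11.7, 2.9 and 178 FPKM in control and 118, 111 and 82.7 FPKM in fatty liver (2.33, adjusted p = 0.37). Control replicate 3 was the highest of all 6 birds in PCK1, and the other controls were the lowest. With that bird left out PCK1 was called higher (3.88, adjusted p = 0.022), and CREM, a cAMP-responsive transcription factor named, like LPIN1, after its values had been seen, was called lower without control replicate 1 (-1.72, adjusted p = 0.048). Of the 13, 8 were lower, with a median of -0.43, which was -0.2 without control replicate 2 and -0.63 without control replicate 1 or with quantile normalization, the ends of its range over the alternatives.

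FBXO32 was the least expressed regulator, at 3.39, 2.41 and 2.76 FPKM in control replicates 1, 2 and 3 and 1.11, 2.36 and 2.31 FPKM in fatty liver replicates 1, 2 and 3. Fatty liver replicate 1 was at less than any other bird, on 59 fragments (95% exact counting interval 0.843 to 1.43 FPKM). The other birds with fatty liver lay just under the lowest control: replicate 2 rested on 121 fragments (1.96 to 2.82 FPKM) and control replicate 2 on 114 fragments (1.99 to 2.9 FPKM), which overlap. The means were 2.85 ± 0.496 and 1.93 ± 0.708 FPKM (SD, n = 3) and the log2 difference was -0.42 (SE 0.23, 95% interval -0.95 to 0.1, limma adjusted p = 0.41). Without fatty liver replicate 1 the difference was -0.2 (adjusted p = 0.7). Its partners in the ubiquitin ligase gave 0 of 7 called in limma or voom, where limma called 1.14% of all genes tested. At an unadjusted p under 0.05 in limma 1 partner was higher and 1 lower, beside 16.3% of all genes in either direction. The partners ran from SKP1 at -0.6 (adjusted p = 0.13) to RBX1 at 0.68 (adjusted p = 0.2).

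FBXO32 is best known from skeletal muscle. The 4 muscle markers in the table summed to between 1.8 and 8.14 FPKM in control and between 3.07 and 3.58 FPKM in fatty liver, nearly all of it from ACTA1, skeletal muscle actin. ACTA1 was at 1.8, 7.87 and 4.66 FPKM in control and 3.08, 2.96 and 3.5 FPKM in fatty liver, above FBXO32 in each bird except control replicate 1. The other markers were low, with TNNT3 at most at 0.404 FPKM, TNNI2 at most at 0.0798 FPKM and MYOG at 0 in all 6 libraries. The part of muscle RNA in the FBXO32 values was not tested.

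DDIT4 varied more among fatty livers than between the groups. It was at 59.7, 53.8 and 35.1 FPKM in control replicates 1, 2 and 3 and at 14.8, 48.6 and 35.6 FPKM in fatty liver replicates 1, 2 and 3. Fatty liver replicates 2 and 3 lay inside the control range and replicate 1 alone lay below it. The SD of fatty livers was 0.86 on the log2(FPKM + 1) scale, and 2.56% of the genes tested had one as large. The log2 difference was -0.69 (SE 0.41, 95% interval -1.63 to 0.25, limma adjusted p = 0.45, exact permutation p = 0.3). Without fatty liver replicate 1 it was -0.21 (adjusted p = 0.78).

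Of 13 tested genes of DDIT4 and mTORC1 signalling none was called by limma or voom (0 of 13), where limma called 1.14% of all genes tested. At an unadjusted p under 0.05 in limma 3 were higher and 0 lower, beside 16.3% of all genes in either direction. The 13 ran from TSC1, part of the complex through which DDIT4 acts, at -0.13 (adjusted p = 0.73) to the stress transcription factor ATF4 at 0.88 (adjusted p = 0.064). ATF4 was at 189, 144 and 167 FPKM in control and 267, 312 and 339 FPKM in fatty liver, with no overlap. The list median of 0.08 was close to that of all genes and lay above or below it depending on the alternative, between 0.07 lower (-0.07) and 0.02 higher.

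FOXO1 and FOXO3 differed from each other in direction, though neither difference passed the test. FOXO1 was at 2.71, 2.7 and 4.97 FPKM in control replicates 1, 2 and 3 and at 6.02, 4.85 and 4.56 FPKM in fatty liver replicates 1, 2 and 3. Control replicate 3 lay inside the fatty liver range and the other controls below it. The log2 difference was 0.49 (SE 0.22, 95% interval -0.03 to 1.01, limma adjusted p = 0.33, exact permutation p = 0.3). FOXO3 was at 6.7, 7.78 and 5.14 FPKM in control and 4.87, 6.72 and 6.47 FPKM in fatty liver, and the groups overlapped. Its log2 difference was -0.1 (SE 0.19, 95% interval -0.54 to 0.35, limma adjusted p = 0.85), and its sign turned without control replicate 2 (0.02) or without fatty liver replicate 1 (0.03). The ratio of FOXO1 to FOXO3 was 0.404, 0.347 and 0.968 in control and 1.23, 0.721 and 0.705 in fatty liver, so control replicate 3 lay inside the fatty liver range here too. This ratio was also chosen after the values had been seen.

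FoxO target genes had no common direction. Of 24 tested, none was called by limma without a replicate block or by voom with all 6 birds (0 of 24). The share of all genes tested that limma called was 1.14%. Limma with the replicate numbers as a block called GADD45B (adjusted p = 0.024) and IGFBP1 (0.039) lower. At an unadjusted p under 0.05 in limma 4 were higher and 5 lower, beside 16.3% of all genes in either direction. GADD45B, a stress and growth arrest gene, had the lowest value, at 404, 491 and 474 FPKM in control and 102, 234 and 178 FPKM in fatty liver (log2 difference -1.48, adjusted p = 0.062). Fatty liver replicate 1 was the lowest and replicate 2 the highest of its group, as in PDK4. IGFBP1, a secreted binder of insulin-like growth factors, named after its values had been seen, was at 173, 311 and 266 FPKM in control and 92.7, 135 and 85.6 FPKM in fatty liver (-1.24, adjusted p = 0.075). The highest value was again that of PCK1, which was called higher without control replicate 3 (3.88, adjusted p = 0.022), while G6PC, the last enzyme of glucose release, also named after its values had been seen, was at 1090 ± 166 and 1020 ± 52.2 FPKM (SD, n = 3, log2 difference -0.09). The list median was -0.01.

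CREB3L3 was at 61.5, 48.8 and 77.1 FPKM in control replicates 1, 2 and 3 and at 135, 70.8 and 86.6 FPKM in fatty liver replicates 1, 2 and 3. Replicate 1 of fatty liver was far above all other birds, and replicate 2 lay inside the control range. The means were 62.5 ± 14.2 and 97.4 ± 33.3 FPKM (SD, n = 3), 1.56-fold higher in fatty liver. The log2 difference was 0.6 (SE 0.27, 95% interval -0.02 to 1.23, limma adjusted p = 0.32, exact permutation p = 0.2), and 0.35 without fatty liver replicate 1 (adjusted p = 0.56). The ratio of KLF15 to CREB3L3 within a bird was 1.4, 2.4 and 0.915 in control and 0.385, 0.803 and 0.48 in fatty liver. The groups did not overlap in this ratio, which was chosen after the values had been seen.

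Of 8 tested genes listed as processing CREB3L3 or as its targets, APOC3, an apolipoprotein that slows the clearance of triglyceride-rich particles, rose from 10900 ± 1510 to 25000 ± 2900 FPKM (SD, n = 3, log2 fold change 1.2, SE 0.17, limma adjusted p = 0.023). That call was lost without control replicate 2 (adjusted p = 0.088), fatty liver replicate 1 (0.05 after rounding), fatty liver replicate 2 (0.062) or fatty liver replicate 3 (0.086), and also with libraries scaled to the same median (0.066), when rescaled without the 50 most abundant genes (0.065) and with voom on the fragments (0.076). With quantile normalization it was kept (adjusted p = 0.018) at a log2 fold change of 0.7. APOA4 had the highest value, at 3060, 1610 and 4020 FPKM in control and 6860, 8180 and 9030 FPKM in fatty liver (1.56, adjusted p = 0.067), and it was called without control replicate 3 (1.84, adjusted p = 0.049). The lowest was that of lipoprotein lipase, LPL, at -0.71 (adjusted p = 0.58). Of the 8, 7 were higher, with a median of 0.48, and 0.2 with quantile normalization. Processing genes and targets are counted together here. The direction in which CREB3L3 acts on each gene was not part of the list, so these values do not measure its activity.

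Among 17 tested relatives of the regulators, KLF10, a Krüppel-like factor that responds to TGF-beta, rose from 12.8 ± 1.52 to 31.1 ± 3.88 FPKM (SD, n = 3, log2 fold change 1.21, SE 0.17, limma adjusted p = 0.022). It was the only 1 called higher and none was called lower, where limma called 1.14% of all genes tested. The KLF10 call was lost without control replicate 1 (adjusted p = 0.066), control replicate 2 (0.075), fatty liver replicate 2 (0.056) or fatty liver replicate 3 (0.092). Its value was opposite in sign to that of KLF15, and KLF9, a glucocorticoid-responsive factor of the same family, had the lowest value (-0.8, adjusted p = 0.26). The list median was 0.28, and 0.14 without control replicate 1, 0.18 without fatty liver replicate 1 and 0.43 without control replicate 2.

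The signals upstream of the regulators gave 1 gene called higher and 1 called lower of 20 tested, beside 1.14% of all genes called in either direction. PRKACA, a catalytic subunit of protein kinase A, rose from 35.2 ± 8.04 to 90.7 ± 15.3 FPKM (SD, n = 3, log2 fold change 1.35, SE 0.21, limma adjusted p = 0.034). SIRT1, a deacetylase that acts on FoxO proteins and PGC-1alpha, fell from 39.6 ± 3.37 to 19.7 ± 3.38 FPKM (SD, n = 3, log2 fold change -0.98, SE 0.18, limma adjusted p = 0.048). SIRT1 was called in 3 of 14 alternatives and in none that left out a library (adjusted p from 0.057 without fatty liver replicate 1 to 0.16 without fatty liver replicate 3). The PRKACA call was lost when either control replicate 1 (adjusted p = 0.088) or control replicate 3 (0.074) was left out, and when fatty liver replicate 1 (0.061), 2 (0.11) or 3 (0.076) was. The list median was -0.05.

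Glucocorticoid target genes had a median of -0.58, and 8 of 12 tested genes were lower in fatty liver. None was called by limma on the FPKM without a replicate block (0 of 12), where limma called 1.14% of all genes tested. An unadjusted p under 0.05 in limma was reached by 7 lower and 2 higher genes, beside 16.3% of all genes in either direction. Voom on the fragments called 1 lower, the phosphatidate phosphatase LPIN1 (-1.81, adjusted p = 0.046). Limma with the replicate numbers as a block called FKBP5 lower (adjusted p = 0.049). With a library left out, limma called GLUL lower without fatty liver replicate 1 (-2.64, adjusted p = 0.016) and FKBP5 lower without control replicate 3 (-1.67, adjusted p = 0.05 after rounding). GLUL, glutamine synthetase, was at 650, 772 and 443 FPKM in control and 338, 79.1 and 118 FPKM in fatty liver (log2 difference -2.04, adjusted p = 0.095), and here fatty liver replicate 1 was the nearest to the controls. FKBP5, a cochaperone of the glucocorticoid receptor, named after its values had been seen, was at 193, 317 and 111 FPKM in control and 82.3, 90 and 62.3 FPKM in fatty liver (-1.28, adjusted p = 0.13). Control replicate 2 was the highest and control replicate 3 the lowest control in KLF15. In this list only FKBP5, GLUL, KLF9 and CEBPB had that order. Control replicate 3 was instead the highest control in DUSP1, SGK1 and CEBPD, named after their values had been seen. The highest value was that of CEBPB, a transcription factor of the acute phase and of gluconeogenesis, at 1.01 (adjusted p = 0.13). Over the alternatives the list median stood 0.62 to 0.81 below that of all genes (-0.81 to -0.62).

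The fat oxidation genes of fasting gave 0 of 12 called by limma or voom with all 6 birds, where limma called 1.14% of all genes tested. At an unadjusted p under 0.05 in limma 4 were higher and 0 lower, beside 16.3% of all genes in either direction. The highest value was that of ANGPTL4, a secreted inhibitor of lipoprotein lipase, at 2.65 (adjusted p = 0.15). ANGPTL4 was at 1.14, 0.609 and 11.8 FPKM in control and 40.9, 10.7 and 21.4 FPKM in fatty liver. Control replicate 3 lay apart from the other controls, inside the fatty liver range here and above it in PCK1. Without control replicate 3, ANGPTL4 was called higher (3.58, adjusted p = 0.033). The list median was 0.2, and it stood between 0.03 below (-0.03) and 0.16 above that of all genes over the alternatives.

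**Figure D3:**
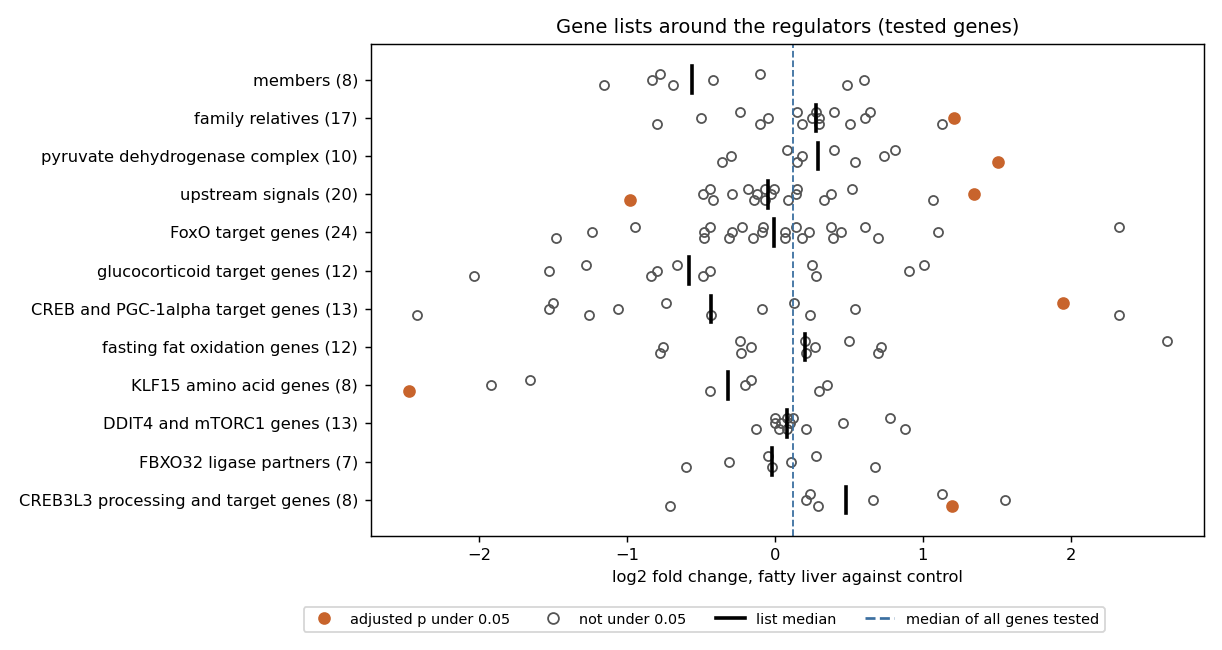
Log2 fold change (fatty liver against control) of every tested gene in the 8 regulators and in 11 lists around them, with the number of tested genes in brackets. Filled points passed an adjusted p of 0.05 in limma, bars are list medians and the dashed line is the median of all genes tested (0.12).

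The distance of each bird with fatty liver to the control mean on the log2(FPKM + 1) scale shows which of these birds lay farthest. It does not show what any control bird contributed. Fatty liver replicate 1 was the farthest of its group in 7 of 8 regulators, where 39.0% of all genes tested had it farthest. Its distances were -1.57 in PDK4, -1.35 in PPARGC1A, -0.86 in FBXO32, -1.64 in DDIT4, 0.69 in FOXO1, -0.35 in FOXO3 and 1.12 in CREB3L3. Fatty liver replicate 2 was the nearest to the controls in PDK4 (-0.64), KLF15 (-0.64), FBXO32 (-0.19), DDIT4 (0.01) and CREB3L3 (0.2). Replicate 3 was the farthest in KLF15, at -1.09.

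**Figure D4:**
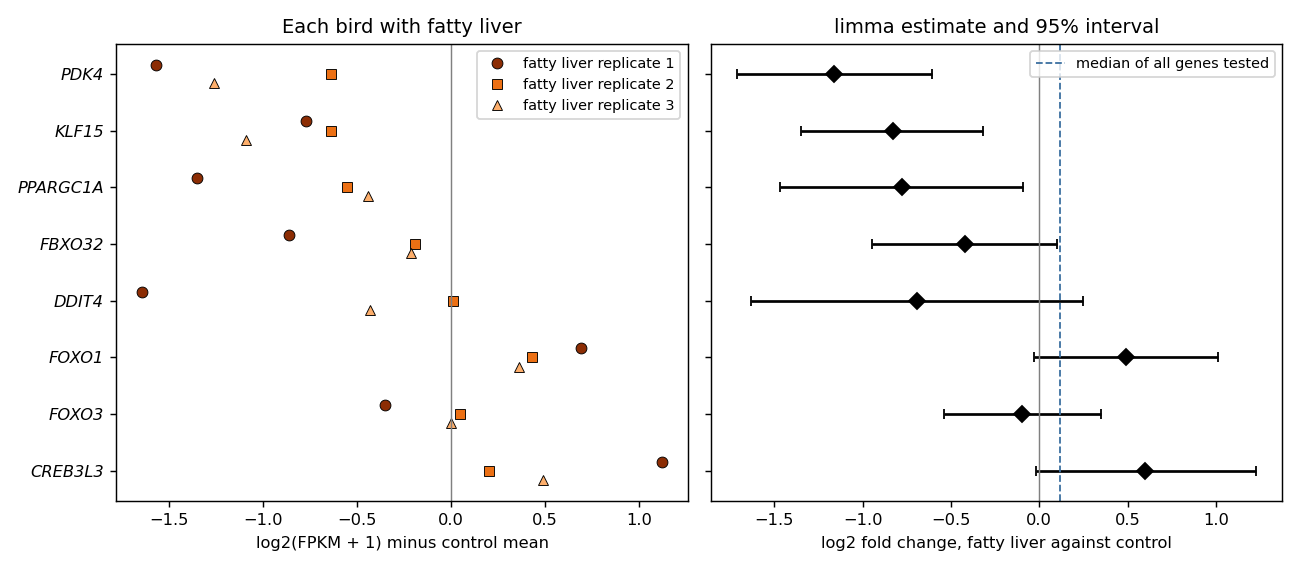
Left, the log2(FPKM + 1) of each bird with fatty liver minus the control mean for the 8 regulators. Right, the limma log2 fold change with its 95% interval and the median of all genes tested (0.12, dashed). Fatty liver replicate 1 is the farthest from 0 in each gene except KLF15.

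Without fatty liver replicate 1 the median of the 8 moved from -0.56 to -0.21. PDK4 (-0.95, adjusted p = 0.12) and KLF15 (-0.87, adjusted p = 0.2) stayed near their values from all birds, whereas PPARGC1A (-0.49), FBXO32 (-0.2), DDIT4 (-0.21) and CREB3L3 (0.35) were smaller by more than 1.5 times. Leaving out a bird cannot make separate groups overlap, so the 4 of 8 regulators without overlap, all lower, had to stay so. No further regulator joined them, while 34.4% of all genes tested did not overlap between the 3 controls and the 2 remaining birds. That share counts both directions. The share of all genes that were lower without overlap was not worked out with this bird left out. Without fatty liver replicate 2 the log2 fold changes of PDK4 (-1.41) and DDIT4 (-1.04) were the largest that any left-out library gave. Control birds also moved the values. With a library left out, KLF15 was smallest without control replicate 2 (-0.64), beside -0.71 without fatty liver replicate 3. Without control replicate 3 FOXO1 was at its largest (0.72), and PPARGC1A was at -0.56.

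**Figure D5:**
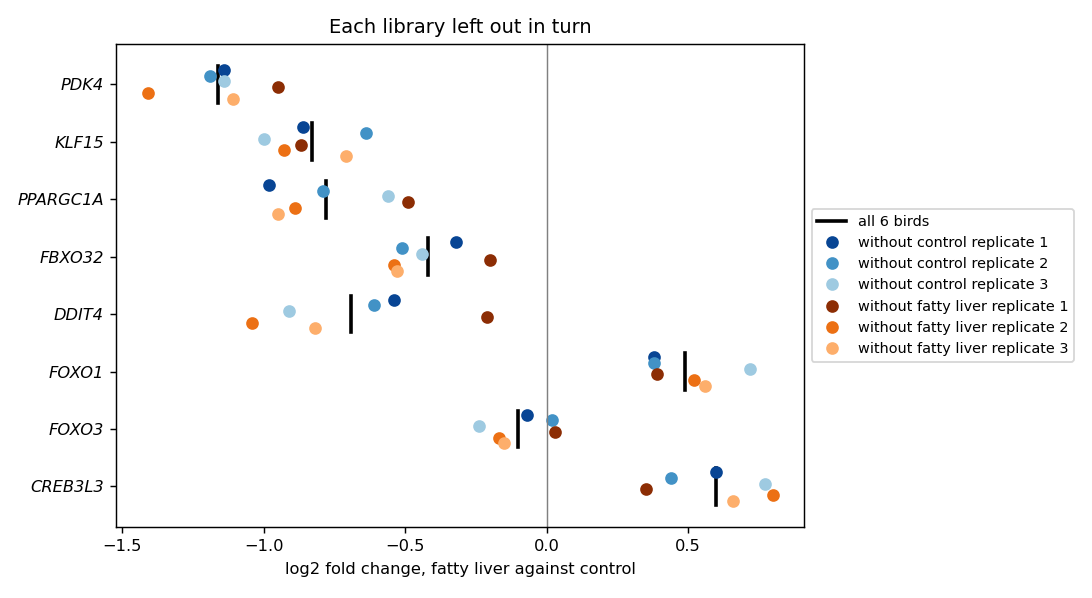
Log2 fold change (fatty liver against control) of each regulator with all 6 birds (black bar) and with each library left out in turn (points). Leaving out fatty liver replicate 1 moves DDIT4, FBXO32, PPARGC1A and CREB3L3 towards 0, and FOXO3 turns sign when control replicate 2 or fatty liver replicate 1 is left out. Leaving out control replicate 3 moves PPARGC1A towards 0 and FOXO1 away from it.

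Fatty liver replicate 1 was also low in immune cell markers. The 6 macrophage markers in the table summed to 254, 476 and 534 FPKM in control and 181, 528 and 895 FPKM in fatty liver, with replicate 1 the lowest of all birds, and none of the 6 was at 0. Most of each sum came from CD74, at 233, 393 and 491 FPKM in control and 169, 441 and 772 FPKM in fatty liver. Fatty liver replicate 1 was the lowest bird in CD74, MARCO, C1QA, C1QB and C1QC. In LY86 it was at 2.36 FPKM, above control replicate 1 at 1.09 FPKM. The 5 T cell and leukocyte markers summed to 35.7, 44.4 and 66.5 FPKM in control and 19.5, 23.3 and 49.1 FPKM in fatty liver. Fatty liver replicate 1 was the lowest bird in CD3E, CD3D and PTPRC. Replicate 2 was lower in CD8A (1.1 against 1.34 FPKM) and LCK (1.44 against 1.64 FPKM). The part of these immune markers in the differences of the regulators was not tested. The 4 adipocyte markers summed to 49.9 to 102 FPKM in control and 165 to 209 FPKM in fatty liver. PLIN1, a lipid droplet protein, was called higher (log2 fold change 2.58, limma adjusted p = 0.01). FABP4 was at 3.24, 3.57 and 0.873 FPKM in control and 4.22, 65.1 and 39.2 FPKM in fatty liver, so it was high in fatty liver replicates 2 and 3 and near the controls in replicate 1 (2.86, adjusted p = 0.16). CIDEC was at 43, 39.8 and 93.2 FPKM in control and 172, 61.5 and 94 FPKM in fatty liver, highest in replicate 1 (0.87, adjusted p = 0.37), and ADIPOQ was at most 1.3 FPKM in any library. Of 4 cholangiocyte markers in the table, SOX9 was called higher, at 1.76, 1.72 and 3.03 FPKM in control and 6.28, 7.16 and 11.9 FPKM in fatty liver (1.55, adjusted p = 0.038), whereas EPCAM (-0.59, adjusted p = 0.43) and KRT7 (-0.22, adjusted p = 0.67) had lower means and CFTR was at most 0.218 FPKM. The part of these cell types in the values of the regulators was not tested either. In whole liver, fewer cells of a type and less RNA per cell cannot be told apart.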

How the data were processed

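Livers of 6 birds were sequenced from poly(A) mRNA with 1 library each. Per the study's methods, the authors trimmed reads using Sickle and SeqPrep, aligned them against the chicken reference and deposited 1 FPKM value for each gene and library. The aligner, the counting tool, the annotation and the use of strand are not given in the sources used here. Columns of values not used numbered 0. Gene symbols were looked up by ID in RefSeq's table for another assembly, bGalGal1.mat.broiler.GRCg7b (16332 IDs found), so coordinates are not given. G6PC1, PDHA1, MPC1, BDH1 and HBAA were matched by hand to the table's own names (G6PC, PDHA2, MPC1L, BDH1A and HBA1). For PDHA1 and MPC1 the identity rests on the table's name only and was not checked by sequence.

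Genes averaging 1 FPKM or more were fitted with limma 3.58.1 in R 4.3.3 (lmFit, then eBayes with a mean-variance trend, two-sided) on log2(FPKM + 1), which understates changes of low genes. The test was run on simulated data with independent noise and with changes larger than that of any regulator. Changes of the size seen in the regulators were not simulated. Whole fragments were worked out from the FPKM of 17185 genes and gave back 100% of the deposited values within 1e-06, and exact Poisson 95% intervals cover counting error only. The limma p-values set the group difference against the spread between these birds, after that spread is moderated with information from all genes tested. Members and gene lists were chosen with earlier results of these data known. Listed genes not found by symbol were left out of all counts and medians. Found were 24 of 25 FoxO targets, 12 of 15 glucocorticoid targets and 13 of 15 CREB and PGC-1alpha targets. So were 13 of 17 fat oxidation genes, 22 of 26 upstream signals and 13 of 16 DDIT4 and mTORC1 genes. Of the relatives 19 of 22 were found, and of the CREB3L3 list 8 of 10. Genes named beside the members were those called and the highest and lowest value of each list, plus the 3 nearest to PDK4 and KLF15, and others are marked. The value of 1 gene that this rule names is not reported here. Alternatives were a pseudocount of 0.1, no filter, quantile normalization, scaling of libraries to 1 median, rescaling without the 50 most abundant genes, no trend, a replicate block, voom on the fragments and each library left out in turn. The count of groups that did not overlap without fatty liver replicate 1 was added after the data had been seen.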

Additional observations from a re-analysis of the deposited data

How the results depend on the processing

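No regulator was called under any of the 14 alternatives (0 of 8 in each), and the smallest adjusted p among them ranged from 0.056 to 0.21. The directions of the regulators were kept in all 14, except that FOXO3, between -0.24 and 0.03 with a library left out, was at 0.02 without control replicate 2 and 0.03 without fatty liver replicate 1. PDK4 and KLF15 had an unadjusted p under 0.05 in all 14 and PPARGC1A in 11. The number of genes called among all genes was 30 with no filter on low values, where 17185 genes were tested and the calls of KLF10 (adjusted p = 0.052), PRKACA (0.079), SIRT1 (0.095), ALAS1 (0.11) and APOC3 (0.29) were lost, and 79 with libraries scaled to the same median (43 higher and 36 lower, beside 92 and 32). It was between 22 and 119 with a library left out, where fewer birds were fitted, and 95 with voom on the fragments (46 higher and 49 lower). Quantile normalization called 85 (45 higher and 40 lower). Same-numbered birds are different animals. Their deviations correlated at 0.025, 0.045 and 0.048, beside -0.091 to 0.057 for birds of different numbers. Whether the numbers mark a shared batch was not tested. With the replicate block 140 genes were called, 92 of them among the 124, and 0 of 8 regulators. Of the listed genes it also called GADD45B (adjusted p = 0.024), IGFBP1 (0.039), OAT (0.02), GPT2 (0.049) and FKBP5 (0.049) lower and APOA4 (0.028) higher.
The low regulators rested on few fragments: a PPARGC1A or FBXO32 value on between 59 and 298, and a FOXO1 value on between 137 and 344. The counting error of a PPARGC1A or FBXO32 value was between 5.79% and 13.0%. Their coefficient of variation between birds of a group was larger, between 17.4% and 41.0%. The sequences of the regulators were not used here.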
